A study of Mus musculus with 9 samples.

Results

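The 50 genes described here encode the machinery that copies DNA and the regulators that bring a cell into S phase. They were taken by name, as subunits and partners of the replication fork, and grouped by role into origin licensing, helicase activation, the sliding clamp and its loader, polymerases and primase, single-strand binding and lagging strand enzymes, nucleotide supply, G1/S control, and chromatin and methylation maintenance. Each of the 50 was found among the 52408 genes of the table. All 50 passed the filter on low values, at least 1 TPM in at least 3 libraries, which 11950 genes passed. RNA was sequenced from MIN6, an insulin-producing mouse insulinoma line that serves as a beta cell model. There were 3 groups of 3 libraries. The first held untransfected cells (control), the second cells overexpressing the nuclear receptor Nr4a1, and the third overexpressing cells that also received EGCG, epigallocatechin gallate, a catechin of green tea. All libraries carry the same batch label. Because control cells were not transfected, the act of transfection and the Nr4a1 transcript cannot be told apart in a difference from control. How cells were transfected, how much EGCG they got and for how long were not given in the sources.

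Replication starts in G1, when the origin recognition complex, Cdc6 and Cdt1 load the MCM ring onto DNA as an inactive helicase. In S phase, kinases, Cdc45 and the GINS complex turn that ring into the active CMG helicase, primase and the polymerases copy the strands, and the clamp Pcna holds the polymerases in place. Many of these genes are transcribed in a wave at the G1/S boundary under E2F factors, so that dividing cells carry more of their mRNA than resting ones. Levels are given in TPM per gene, a length-corrected share of a library's transcripts. A log2 fold change is a difference between group means of log2(TPM + 1), a scale on which low genes appear to change less than they do. The sequencing depth is unknown, since TPM does not hold it. Nothing in the labels says that the 3 libraries of a group were separate cultures, so the p-values speak only of the spread among them, which may be technical.

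Nr4a1, the overexpressed gene, was between 0.63 and 0.78 TPM in control cells, between 123 and 165 TPM with overexpression and between 46.3 and 60.9 TPM when EGCG was added. The third group therefore held less Nr4a1 than the second (log2 fold change -1.34, with an adjusted p of 3.71e-05 by limma with Benjamini-Hochberg adjustment), and a difference between them joins the compound with that lower level. All 12 beta cell markers passed the filter, with a summed level of 19900 to 21900 TPM in control cells, 26900 to 27300 TPM with overexpression and 21400 to 22600 TPM with EGCG. Single markers went both ways. By limma at an adjusted p under 0.05, 8 were higher and 2 lower with overexpression, beside 38.2% and 21.3% of all tested genes. With EGCG against overexpression 1 was higher and 7 lower, beside 18.8% and 34.1%. For EGCG against control 2 were higher and 5 lower, beside 11.1% and 7.1%. Of 30 markers of other cells, Spp1 and Krt7 of the duct list and Cela1 of the acinar list passed the filter. Fibroblast, leukocyte and endothelial lists summed to at most 1.38 TPM in any library, while the duct list held 33.5 to 38.6, 80.0 to 85.8 and 41.7 to 44.4 TPM in the order of the groups, most of it Spp1 (21.7, 71.4 and 29.3 TPM). Krt19 and Sox9, defining duct markers, were at or near 0, and the acinar list summed to 3.83 to 5.36 TPM with Prss1 listed at 0. The part of these levels in the results was not tested. Nuclear protein-coding genes took 21.2 to 21.7% of a library's TPM in control cells, 22.6 to 23.1% with overexpression and 20.3 to 20.7% with EGCG, and values rescaled over these genes are given below.

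With Nr4a1 overexpression most of the replication genes were higher than in control, and with EGCG most were lower than with overexpression alone. Together the 50 genes held 1204 to 1253 TPM in the control libraries, 1635 to 1690 TPM with overexpression and 1199 to 1260 TPM with EGCG, so that the second group lay above both others without overlap. Against control, 38 genes were higher, 1 was lower (Lig1) and 11 were not called at a limma Benjamini-Hochberg adjusted p under 0.05, against 38.2% of all tested genes called higher and 21.3% called lower. Their median log2 fold change was 0.33, between -0.30 and 1.28, beside a median of 0.10 over all tested genes. With EGCG against overexpression alone, 36 genes were lower, 2 were higher (Cdc7 and Pold1) and 12 were not called, against 34.1% of all tested genes lower and 18.8% higher. The median there was -0.36 for the replication genes and -0.09 for all tested genes. These comparisons share the overexpression libraries, so a high value in that group enters both. In bulk RNA a larger share of cells in S phase and more mRNA per cell cannot be told apart.

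**Figure D1:**
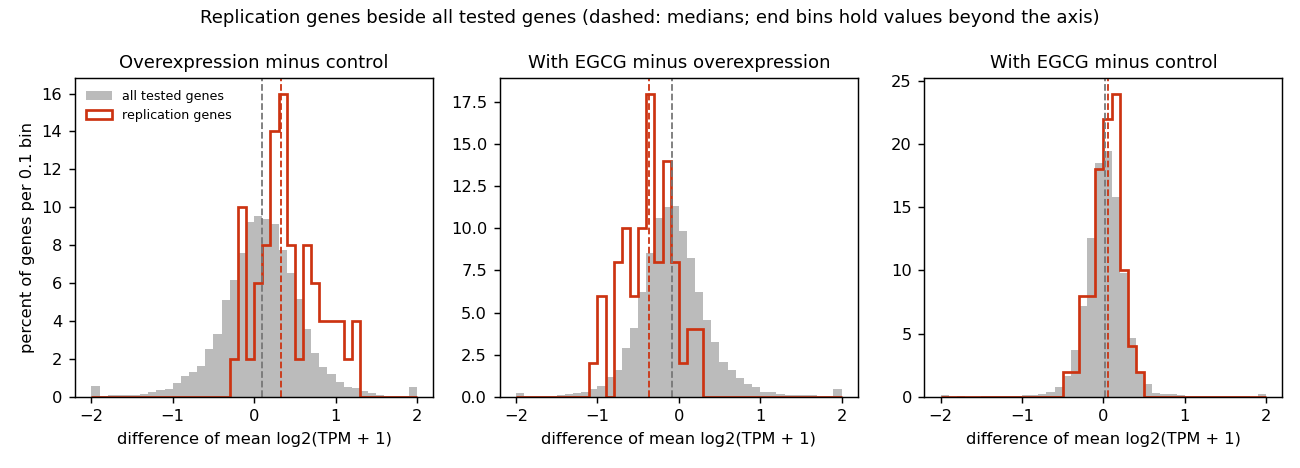
Percent of genes in each 0.1-wide bin of the difference of mean log2(TPM + 1), for all 11950 tested genes (grey) and the 50 replication genes (red outline), in the 3 comparisons, with medians dashed. The replication genes lie to the right of all genes with overexpression (median 0.33 against 0.10), to the left when EGCG is set against overexpression (-0.36 against -0.09), and beside them when EGCG is set against control (0.05 against 0.02).

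The scaling of TPM bears on how many of the smaller changes are called. The split of 38 higher and 1 lower became 31 and 6 after median-ratio scaling, 27 and 6 after quantile normalization, and 32 and 5 with TPM rescaled over nuclear protein-coding genes. All 11950 tested genes split 4561 higher and 2545 lower, and 3541 and 3547, 3559 and 3390, and 3661 and 2937 under those settings. For EGCG against overexpression all genes split 2250 higher and 4080 lower, and then 3054 and 3082, 2814 and 3098, and 3234 and 2568, where the median of all genes moved from -0.09 to 0.03 in the last. The replication genes split there into 31 lower and 4 higher, 27 and 4, and 27 and 4.

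**Figure D2:**
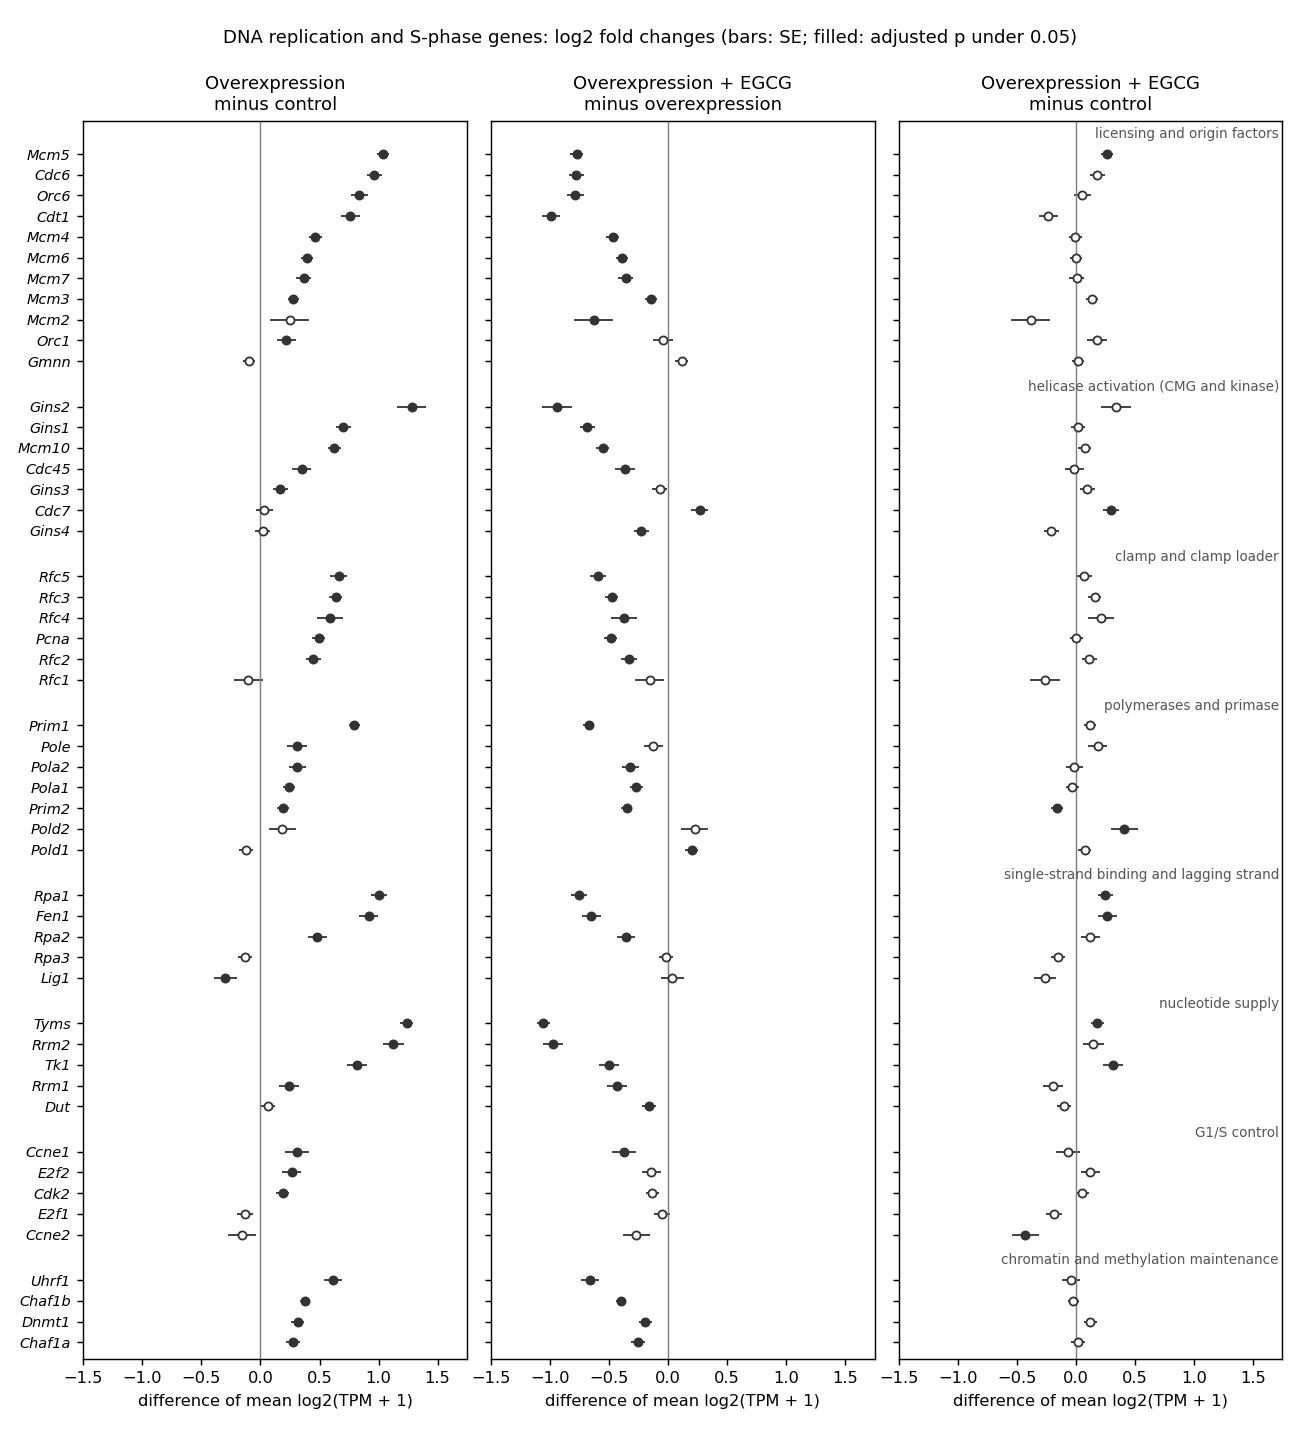
Difference of mean log2(TPM + 1) of the 50 replication genes, by role, for overexpression against control (left), EGCG with overexpression against overexpression (middle) and EGCG with overexpression against control (right). Bars are SE and filled points have an adjusted p under 0.05. Most points lie right of 0 on the left, left of 0 in the middle and around 0 on the right, while Gmnn, Rpa3 and E2f1 have open points in all panels.

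Promoters are shown for members that moved together, as E2F factors are the textbook regulators of this wave. RefSeq windows of 300 bases (GRCm38.p6), from 250 bases before to 50 bases after a gene's RefSeq start, matched 41 of the 50 genes. That start lay within 50 bases of the start of the gene's most abundant coding transcript for 31 of the 41. The median distance was 23 bases and the largest 539 bases, for Mcm7. Mcm4, Gmnn, Gins1, Gins2, Gins4, Rfc2, Pole, Prim2 and Ccne2 had no entry. The E2F motif was searched as TTTCCCGC, TTTCGCGC, TTTGCCGC or TTTGGCGC on both strands. It was present in 14 of 41 replication promoters (34.1%) and in 399 of 8789 promoters of tested genes (4.54%). CCAAT, the motif of the NF-Y factor, on both strands was found in 61.0% of the replication promoters and 39.8% of all, and TTTGAA, the CHR motif of late cell cycle genes, on both strands in 9.76% and 11.1%. The windows below belong to the 4 genes with a match that rose most with overexpression and to Tyms, which by gene total rose most among those without one. They are written 5′ to 3′ on the gene's strand, with E2F matches in capitals.
Mcm5 (chr8:75109259-75109558, plus strand): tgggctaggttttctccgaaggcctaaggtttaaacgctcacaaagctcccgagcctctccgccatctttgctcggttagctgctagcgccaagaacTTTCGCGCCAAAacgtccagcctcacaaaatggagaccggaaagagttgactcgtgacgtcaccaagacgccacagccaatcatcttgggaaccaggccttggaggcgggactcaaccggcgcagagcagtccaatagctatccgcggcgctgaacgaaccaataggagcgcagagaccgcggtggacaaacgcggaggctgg
Cdc6 (chr11:98907901-98908200, plus strand): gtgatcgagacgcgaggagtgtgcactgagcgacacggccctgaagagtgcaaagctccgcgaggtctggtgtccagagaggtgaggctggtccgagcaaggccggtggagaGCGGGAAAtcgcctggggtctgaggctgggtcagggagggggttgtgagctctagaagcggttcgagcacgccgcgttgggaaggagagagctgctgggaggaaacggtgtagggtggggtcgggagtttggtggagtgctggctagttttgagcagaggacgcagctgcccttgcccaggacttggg
Cdt1 (chr8:122567765-122568064, plus strand): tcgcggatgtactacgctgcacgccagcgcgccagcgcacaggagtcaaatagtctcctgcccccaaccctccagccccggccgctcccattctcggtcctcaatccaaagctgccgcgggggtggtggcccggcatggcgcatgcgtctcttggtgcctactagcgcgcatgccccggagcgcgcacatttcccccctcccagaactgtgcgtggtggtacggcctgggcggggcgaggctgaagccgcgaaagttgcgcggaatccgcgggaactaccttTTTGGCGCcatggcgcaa
Rfc3 (chr5:151651159-151651458, minus strand): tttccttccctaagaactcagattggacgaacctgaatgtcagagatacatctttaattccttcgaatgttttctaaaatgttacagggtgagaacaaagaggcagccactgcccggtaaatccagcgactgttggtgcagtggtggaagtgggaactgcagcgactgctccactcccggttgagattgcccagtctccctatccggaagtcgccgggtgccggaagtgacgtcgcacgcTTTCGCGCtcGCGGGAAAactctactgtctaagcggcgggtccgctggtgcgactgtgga
Tyms (chr5:30073576-30073875, minus strand): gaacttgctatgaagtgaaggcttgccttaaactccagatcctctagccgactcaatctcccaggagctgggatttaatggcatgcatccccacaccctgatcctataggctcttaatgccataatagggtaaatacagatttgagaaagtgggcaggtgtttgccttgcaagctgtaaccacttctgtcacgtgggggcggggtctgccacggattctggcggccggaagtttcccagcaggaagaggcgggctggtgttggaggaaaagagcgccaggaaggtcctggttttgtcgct
In Mcm5 the capitals cover 2 overlapping matches, TTTCGCGC from base -153 and GCGCCAAA, a match on the opposite strand, from base -149. Positions are counted from the RefSeq start, which for Mcm5 lay 67 bases from the start of its most abundant coding transcript. Cdc6 holds GCGGGAAA from base -138, Cdt1 TTTGGCGC from base 33, and Rfc3 TTTCGCGC from base -10 and GCGGGAAA from base 1. Of the 14 with a match, 12 were higher and 1 lower with overexpression, with a median log2 fold change of 0.27, and of the 27 without, 20 were higher and 0 lower by limma, with a median of 0.38. With EGCG the medians were -0.21 (8 lower, 1 higher) and -0.40 (22 lower, 1 higher). A match here is a run of letters in a window and no measure of binding.

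The counts by role, here and below, stand beside shares over all tested genes of 38.2% higher and 21.3% lower with overexpression. With EGCG against overexpression these shares were 34.1% lower and 18.8% higher. The roles hold only 4 to 11 genes each, and none was tested against these shares. Origin licensing genes rose in 9 of 11 cases with overexpression (median log2 fold change 0.39) and fell in 9 of 11 with EGCG (median -0.47). Mcm5, a subunit of the MCM helicase ring, stood at 29.9, 32.3 and 31.8 TPM in the control libraries, 66.7, 64.5 and 65.1 TPM with overexpression, and 37.9, 39.7 and 36.0 TPM with EGCG. The groups did not overlap, and the mean with overexpression was 2.09 times the control mean, a log2 fold change of 1.04 ± 0.0531 SE (limma adjusted p = 1.28e-06). Cdc6, the ATPase that helps load the ring, was at 5.84, 6.41 and 5.90 TPM, then 13.1, 12.6 and 12.4 TPM, and 7.04, 7.54 and 6.45 TPM with EGCG. It rose 2.10-fold (limma adjusted p = 3.96e-06) and fell with EGCG by 0.78 on the log2 scale (limma adjusted p = 1.79e-05). Orc6, a subunit of the origin recognition complex, was at 28.8, 33.2 and 33.8 TPM in control cells, 57.0, 57.1 and 59.3 TPM with overexpression and 32.9, 35.5 and 31.1 TPM with EGCG, so that the first and last groups overlapped and the middle one stood apart. Its log2 fold changes were 0.84 ± 0.0717 (SE) and -0.78 ± 0.0717. Cdt1, the other loading factor, moved from 8.57 ± 0.66 TPM to 15.2 ± 0.633 TPM and down to 7.16 ± 0.76 TPM (SD, n = 3 each), and its ratio of 0.472 between EGCG and overexpression was the lowest of the 50 genes. Its inhibitor geminin (Gmnn) did not follow, at 20.9 ± 0.679, 19.5 ± 0.561 and 21.2 ± 1.06 TPM. Geminin's log2 fold change of -0.10 with overexpression was not called, though the 3 rescaled fits each called it lower, by -0.18 to -0.24.

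The subunits of the MCM ring sit together in equal numbers in the protein complex, yet by gene total their mRNAs rose by unequal factors. Mcm5 rose 2.09-fold, Mcm4 1.40-fold (26.1 ± 0.246 to 36.4 ± 1.98 TPM), Mcm6 1.32-fold (69.8 ± 2.01 to 91.9 ± 3.33 TPM), Mcm7 1.29-fold (79.6 ± 4.93 to 103 ± 5.66 TPM) and Mcm3 1.23-fold (17.6 ± 0.349 to 21.5 ± 0.567 TPM). Mcm2 was not called (53.8 ± 14.3 and 62.4 ± 1.24 TPM; limma adjusted p = 0.224) and held a short transcript in some control libraries, described with the transcripts below. With EGCG the gene totals of Mcm4, Mcm6 and Mcm7 came to 26.0 ± 1.33, 69.7 ± 2.59 and 79.9 ± 3.2 TPM, within 1 SD of control. The 2962-base coding transcript of Mcm7 was at 39.8 ± 2.52, 64.6 ± 1.21 and 46.2 ± 1.78 TPM in the order of the groups. In the fit of each gene's most abundant coding transcript, Mcm7 was called higher with EGCG than in control (log2 fold change 0.21; limma adjusted p = 0.0338). A 795-base form of Mcm7, annotated as coding, was at 11.9 ± 4.94, 3.39 ± 1.32 and 5.63 ± 3.25 TPM. Mcm3 fell least, by 0.14 on the log2 scale, a call that was lost under each rescaling and without overexpression replicate 1 or 3 or EGCG replicate 1 or 3 (limma adjusted p between 0.0647 and 0.118). Orc1, the largest subunit of the origin complex, was the least abundant member in control (1.95 ± 0.248 TPM), with a log2 fold change of 0.22 that was called (limma adjusted p = 0.0476) and that lost its call under each rescaling and when any single library other than control replicate 2 or EGCG replicate 1 was left out (limma adjusted p up to 0.154, without control replicate 1).

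Helicase activators divided between strong responders and genes that hardly moved. With overexpression 5 of 7 rose (median log2 fold change 0.35), and with EGCG 5 of 7 fell and 1 rose (median -0.37). Gins2, a subunit of the GINS complex, was at 8.87, 13.11 and 11.97 TPM in control cells, 29.9, 25.7 and 30.4 TPM with overexpression and 14.0, 15.5 and 13.7 TPM with EGCG. By gene total its ratio of 2.53 was the highest of the 50 genes (log2 fold change 1.28 ± 0.126 SE; limma adjusted p = 3.51e-05). On coding transcripts alone Gins2 rose 1.85-fold, and Rrm2 was the highest there at 2.26-fold. Gins1, the partner of Gins2, was at 8.49, 7.86 and 7.52 TPM, then 13.6, 13.7 and 13.4 TPM, and 7.47, 8.59 and 8.15 TPM with EGCG, a 1.70-fold rise after which the EGCG libraries overlapped those of control. The other GINS subunits differed: Gins3 rose only from 4.34 ± 0.0764 to 5.02 ± 0.458 TPM, a call lost when any single library but overexpression replicate 3 was left out (limma adjusted p up to 0.168), and Gins4 was at 17.1 ± 0.746 and 17.4 ± 0.859 TPM. Gins4 was lower with EGCG, at 14.7 ± 1.02 TPM (log2 fold change -0.23; limma adjusted p = 0.0149), a call that each rescaling removed, as did leaving out overexpression replicate 3 or EGCG replicate 1 (limma adjusted p = 0.0604 and 0.056). Mcm10, which helps to open the helicase, was at 6.12, 6.20 and 5.93 TPM, then 10.01, 9.53 and 10.28 TPM, and 6.11, 6.48 and 6.79 TPM with EGCG. Every overexpression library lay above all others (log2 fold change 0.63 ± 0.0541 SE; limma adjusted p = 1.69e-05). Cdc45, the third part of the CMG helicase, went from 12.7 ± 1.62 to 16.3 ± 0.0231 TPM and back to 12.5 ± 0.597 TPM.

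Cdc7, the kinase that fires loaded origins, moved the other way. It was at 7.80, 7.01 and 6.89 TPM in control cells, 7.09, 7.41 and 7.72 TPM with overexpression and 9.82, 8.28 and 9.30 TPM with EGCG. The control and overexpression libraries overlapped, and every EGCG library lay above them (log2 fold change against overexpression 0.27 ± 0.0718 SE; limma adjusted p = 0.0119). Summed over protein-coding transcripts alone, Cdc7 was at 5.46 ± 0.0917 and 5.82 ± 0.366 TPM, and the call was lost (log2 fold change 0.08; limma adjusted p = 0.328), since 26.2% of its TPM with overexpression and 36.2% with EGCG lay on transcripts not annotated as coding. Dbf4, the activator of this kinase, was at 17.2 ± 1.35, 16.3 ± 0.199 and 15.7 ± 0.481 TPM and was called in neither comparison.

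Most of the clamp and loader genes rose. With overexpression 5 of 6 genes were higher (median log2 fold change 0.54), and with EGCG the count was 5 of 6 lower (median -0.43). Pcna, the sliding clamp and the most abundant of the 50 transcripts, was at 129, 132 and 143 TPM in control cells, 190, 187 and 190 TPM with overexpression and 134, 139 and 131 TPM with EGCG. It rose 1.41-fold (limma adjusted p = 7.58e-05), and its EGCG libraries fell inside the control range. Rfc3, a small subunit of the clamp loader, was at 23.9, 24.9 and 26.2 TPM, then 40.4, 38.5 and 39.4 TPM, and 26.5, 29.1 and 28.6 TPM with EGCG, with no overlap between groups (log2 fold changes 0.64 ± 0.0549 and -0.48 ± 0.0549 SE). Rfc5, another small subunit, was at 11.6, 11.3 and 11.6 TPM in control cells, 18.02, 19.8 and 18.55 TPM with overexpression and 13.42, 11.99 and 11.03 TPM with EGCG. It rose 1.63-fold and returned into overlap with control. Rfc4 rose 1.53-fold and Rfc2 1.37-fold. On coding transcripts alone, a small part of its TPM, Rfc2 went from 3.73 ± 0.139 to 4.29 ± 0.0265 TPM, 1.15-fold (limma adjusted p = 0.0204). The call of Rfc4 with EGCG (-0.37) was lost under each rescaling and without overexpression replicate 3 or EGCG replicate 3. By gene total the large subunit Rfc1 was at 24.4 ± 4.4, 22.4 ± 1.27 and 20.0 ± 2.11 TPM and was called in neither comparison (log2 fold changes -0.10 ± 0.125 and -0.16 ± 0.125 SE). It was called lower with overexpression when control replicate 3 was left out (-0.25; limma adjusted p = 0.0353). A 485-base retained intron transcript of Rfc1 was at 6.08, 4.4 and 0 TPM in control replicates 1, 2 and 3. On coding transcripts alone Rfc1 was at 20.5 ± 1.39, 21.6 ± 0.92 and 18.8 ± 1.39 TPM. There it was not called with overexpression (0.07; limma adjusted p = 0.391) and was called lower with EGCG (-0.19; limma adjusted p = 0.0397).

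Among polymerases and primase, 5 of 7 genes rose with overexpression (median log2 fold change 0.24), and with EGCG 4 fell and 1 rose (median -0.27). Prim1, the catalytic subunit of primase, was at 22.2, 22.9 and 22.3 TPM in control cells, 39.0, 39.3 and 40.6 TPM with overexpression and 24.0, 25.8 and 23.7 TPM with EGCG. The 3 groups did not overlap, and the rise of 1.77-fold was among the steadiest (log2 fold change 0.79 ± 0.0482 SE; limma adjusted p = 2.79e-06). Its regulatory partner Prim2 rose only from 16.1 ± 0.339 to 18.6 ± 0.785 TPM, a call lost under each rescaling (limma adjusted p between 0.0735 and 0.542). Pola1, the catalytic subunit of the polymerase that works with primase, was at 18.28, 18.94 and 18.01 TPM, then 22.7, 21.1 and 22.0 TPM, and 17.3, 17.9 and 18.9 TPM with EGCG. Pola2, its accessory subunit, was at 14.9, 12.5 and 13.1 TPM, then 16.5, 17.2 and 17.1 TPM, and 13.2, 12.5 and 14.2 TPM with EGCG. Both lay higher with overexpression than in any other library (log2 fold changes 0.24 ± 0.052 and 0.31 ± 0.072 SE), and quantile normalization removed both calls.

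The leading and lagging strand polymerases moved less. Pole, the catalytic subunit of the leading strand polymerase, rose from 13.7 ± 1.8 to 17.1 ± 0.357 TPM and was not called against EGCG, at 15.6 ± 0.709 TPM. Quantile normalization removed the call of its rise (limma adjusted p = 0.101). Pold1, the catalytic subunit of the lagging strand polymerase, was at 15.2, 15.0 and 13.8 TPM in control cells, 12.7, 13.7 and 13.7 TPM with overexpression and 15.5, 14.9 and 16.0 TPM with EGCG. All overexpression libraries lay below all others by gene total, with a call against EGCG (log2 fold change 0.20 ± 0.0573 SE; limma adjusted p = 0.0166) and none against control (-0.12; limma adjusted p = 0.0902). The call was lost without overexpression replicate 1 (limma adjusted p = 0.0641) and without EGCG replicate 3 (limma adjusted p = 0.0557). Under each of the 3 rescalings, and without control replicate 3 (-0.17; limma adjusted p = 0.0309), Pold1 was called lower with overexpression. On coding transcripts alone it was at 8.68 ± 1.12 TPM in control cells and 8.69 ± 0.412 TPM with overexpression, with overlapping libraries (limma adjusted p = 0.952), and at 10.5 ± 0.564 TPM with EGCG (limma adjusted p = 0.0305 against overexpression). A 532-base retained intron transcript of Pold1 was at 4.62 ± 2.15 TPM in control cells and 2.76 ± 0.7 TPM with overexpression. The accessory subunit Pold2 was at 16.4 ± 2.13, 18.7 ± 0.63 and 22.2 ± 3.5 TPM, and on coding transcripts alone at 14.6 ± 0.466, 13.0 ± 0.445 and 14.5 ± 1.08 TPM, where its direction with overexpression turned to lower (log2 fold change -0.15; limma adjusted p = 0.0488).

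**Figure D3:**
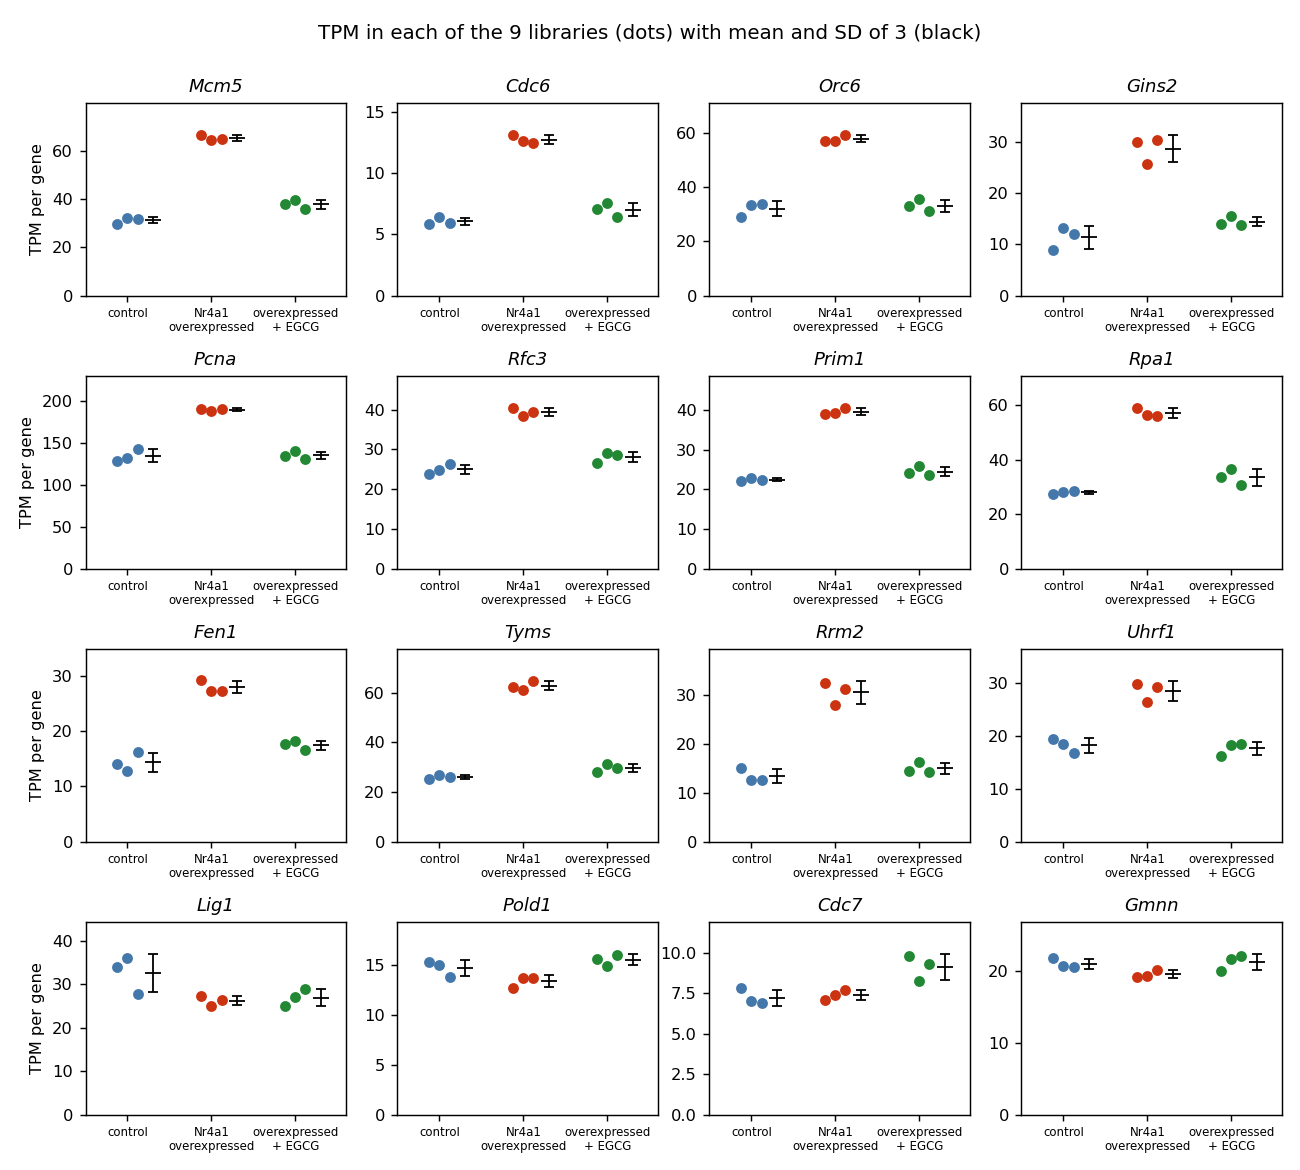
TPM of 16 replication genes in each library (coloured dots), with mean and SD of the 3 libraries of a group in black, on axes that start at 0. In the first 12 panels, Mcm5 to Uhrf1, every overexpression library lies above every other library, while Lig1, Pold1, Cdc7 and Gmnn in the last row do not follow that pattern.

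Single-strand binding and lagging strand enzymes split within their complexes. With overexpression 3 of 5 rose and 1 fell (median log2 fold change 0.48), and with EGCG 3 of 5 fell (median -0.36). Among all tested genes 38.2% rose and 21.3% fell with overexpression and 34.1% fell with EGCG, and a list of 5 genes is small. Rpa1, the large subunit of the single-strand binding protein RPA, was at 27.3, 28.1 and 28.5 TPM in control cells, 59.2, 56.4 and 55.9 TPM with overexpression and 33.5, 36.7 and 30.5 TPM with EGCG. It rose 2.04-fold without overlap (log2 fold change 1.00 ± 0.0662 SE; limma adjusted p = 4e-06). Rpa2, the middle subunit, was at 9.49, 11.1 and 11.2 TPM, then 15.5, 14.98 and 14.96 TPM, and 12.5, 11.9 and 10.5 TPM with EGCG, a 1.43-fold rise. The small subunit Rpa3 stood at 49.1 ± 3.69, 44.6 ± 0.435 and 44.1 ± 1.17 TPM, with no call in the first 2 comparisons, and was called lower with overexpression in each of the 3 rescaled fits and without control replicate 2 (-0.20; limma adjusted p = 0.0123). Fen1, the nuclease that trims Okazaki fragments, was at 14.1, 12.75 and 16.2 TPM in control cells, 29.2, 27.3 and 27.2 TPM with overexpression and 17.6, 18.1 and 16.5 TPM with EGCG. It rose 1.94-fold (limma adjusted p = 1.88e-05), and every EGCG library lay between the other groups. Lig1, the ligase that seals the same fragments, was at 33.9, 36.2 and 27.8 TPM in control cells, 27.2, 25.1 and 26.4 TPM with overexpression and 24.9, 27.1 and 28.8 TPM with EGCG. It was the 1 gene called lower with overexpression (log2 fold change -0.30 ± 0.0945 SE; limma adjusted p = 0.0228). That call rested on single libraries, with a limma adjusted p of 0.0694 without control replicate 1, 0.0807 without control replicate 2, 0.0734 without overexpression replicate 2 and 0.0534 without overexpression replicate 3.

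Nucleotide supply had the highest median of the roles, with 4 of 5 genes higher with overexpression (median log2 fold change 0.82) and 5 of 5 lower with EGCG (median -0.50). Tyms, thymidylate synthase, was at 25.1, 26.99 and 26.16 TPM in control cells, 62.4, 61.4 and 64.9 TPM with overexpression and 28.2, 31.1 and 29.9 TPM with EGCG. The groups did not overlap, and by gene total the rise of 2.41-fold (log2 fold change 1.24 ± 0.0535 SE; limma adjusted p = 5.08e-07) and the fall by 1.06 ± 0.0535 (SE) on the log2 scale (limma adjusted p = 1.37e-06) had the smallest p-values of the 50 genes. Most of the TPM of Tyms lay on transcripts not annotated as coding. On coding transcripts alone it rose 1.73-fold (limma adjusted p = 0.00188). Its promoter, printed above, holds none of the E2F letters searched. Rrm2, the regulated subunit of ribonucleotide reductase, was at 15.1, 12.6 and 12.6 TPM, then 32.3, 27.9 and 31.1 TPM, and 14.4, 16.3 and 14.3 TPM with EGCG. It rose 2.26-fold, while Rrm1, the constitutive subunit, went from 42.6 ± 5.44 to 50.2 ± 1.82 TPM (1.18-fold), a call lost under each rescaling and without any single overexpression library (limma adjusted p between 0.0558 and 0.104). On coding transcripts alone Rrm1 rose more, from 33.7 ± 0.622 to 47.1 ± 1.82 TPM (1.40-fold; limma adjusted p = 2.89e-05), beside a 747-base transcript of the decay type at 8.27, 10.35 and 1.02 TPM in the control libraries and 0.72 ± 0.338 TPM with overexpression. Tk1, thymidine kinase, was at 14.1, 13.8 and 17.6 TPM, then 25.9, 27.6 and 28.6 TPM, and 19.4, 18.3 and 19.2 TPM with EGCG, which left it between the other groups. Dut, the dUTPase, was at 48.3 ± 2.84, 50.4 ± 1.22 and 45.0 ± 2.48 TPM, and its call with EGCG (limma adjusted p = 0.0468) was lost when any single library was left out, other than control replicate 3 and EGCG replicate 2 (limma adjusted p up to 0.158).

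By gene total, regulators of the G1/S step changed least. With overexpression 3 of 5 were higher (median log2 fold change 0.19), beside 38.2% of all tested genes. With EGCG 1 of 5, Ccne1, was lower (median -0.14), beside 34.1%. On coding transcripts alone, Ccne1, Ccne2, Cdk2 and E2f2 were called lower with EGCG (limma adjusted p between 0.000841 and 0.0288), and E2f1 was not. Their log2 fold changes there were -0.35, -0.27, -0.18 and -0.27, and -0.05 for E2f1. Ccne1, cyclin E1, was at 6.59, 7.36 and 7.85 TPM in control cells, 9.85, 8.83 and 8.97 TPM with overexpression and 5.78, 7.10 and 7.87 TPM with EGCG. E2f2, an activating E2F, was at 2.17, 2.31 and 2.15 TPM, then 2.83, 2.57 and 3.19 TPM, and 2.47, 2.8 and 2.24 TPM with EGCG. All overexpression libraries lay above control for both, by 1.27-fold and 1.30-fold (limma adjusted p = 0.0261 and 0.0198). Median-ratio and quantile scaling removed both calls, as did leaving out control replicate 1 or overexpression replicate 3 (limma adjusted p between 0.0505 and 0.0874), and Ccne1 lost its call also without control replicate 2 or overexpression replicate 1 (0.0523 and 0.0879). E2f1, the best studied activating E2F, was at 10.1 ± 0.603, 9.09 ± 0.275 and 8.73 ± 0.718 TPM and was not called, though the 3 rescaled fits each called it lower with overexpression (log2 fold changes -0.21 to -0.25; limma adjusted p between 0.00556 and 0.0154). Cdk2, the kinase partner of cyclin E, was at 8.61, 9.11 and 8.85 TPM, then 9.69, 10.9 and 10.1 TPM, and 9.27, 9.5 and 8.95 TPM with EGCG. Its gene-level change was small (log2 fold change 0.19 ± 0.0551 SE; limma adjusted p = 0.0156) and was called neither in any rescaled fit nor without overexpression replicate 2 (limma adjusted p = 0.0646).

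Beneath the small change of Cdk2 the estimated levels of its coding transcripts traded places. GENCODE lists a 2406-base form with 8 exons and 346 codons and a 2240-base form with 7 exons and 298 codons. The longer holds 1 exon of 144 bases that the shorter lacks. The 8-exon form was at 5.65, 5.95 and 5.59 TPM in control cells, 2.9, 3.25 and 2.7 TPM with overexpression and 5.61, 5.30 and 4.38 TPM with EGCG. The 7-exon form was at 0.99, 0.61 and 1.32 TPM, then 5.48, 5.38 and 5.42 TPM, and 1.58, 2.64 and 2.39 TPM with EGCG. As a share of Cdk2 coding TPM, which does not depend on how libraries are scaled, the 7-exon form made up 14.4% ± 4.92 in control cells, 64.8% ± 2.26 in overexpressing cells and 30.2% ± 7.18 after EGCG (SD, n = 3 each), without overlap between the groups. The shares were not tested. In the fit of each gene's most abundant coding transcript, the 8-exon form fell with overexpression by 0.77 on the log2 scale (limma adjusted p = 9.95e-05) and rose with EGCG by 0.62 (limma adjusted p = 0.000438).

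E2f1 showed a shift of the same kind that did not go back. Its 2755-base transcript (385 codons) was at 2.04, 2.05 and 2.46 TPM in control cells, 4.07, 4.48 and 4.61 TPM with overexpression and 3.75, 3.96 and 4.35 TPM with EGCG. Its 2732-base transcript (430 codons) was at 8.48, 8.24 and 6.92 TPM, then 5.20, 4.74 and 4.16 TPM, and 4.16, 5.10 and 4.88 TPM. The share of the 2755-base form in coding TPM was 21.8% ± 3.8 in control cells, 48.4% ± 4.34 in overexpressing cells and 46.1% ± 2.06 after EGCG (SD, n = 3 each), and the last 2 groups overlapped. The authors' estimation divides shared reads between the forms of a gene. The splits of Cdk2 and of E2f1, whose forms both have 7 exons, are therefore less certain than the levels of the genes. Reads across exon junctions were not examined for either gene. The shares of both genes were looked at after their values were seen.

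**Figure D4:**
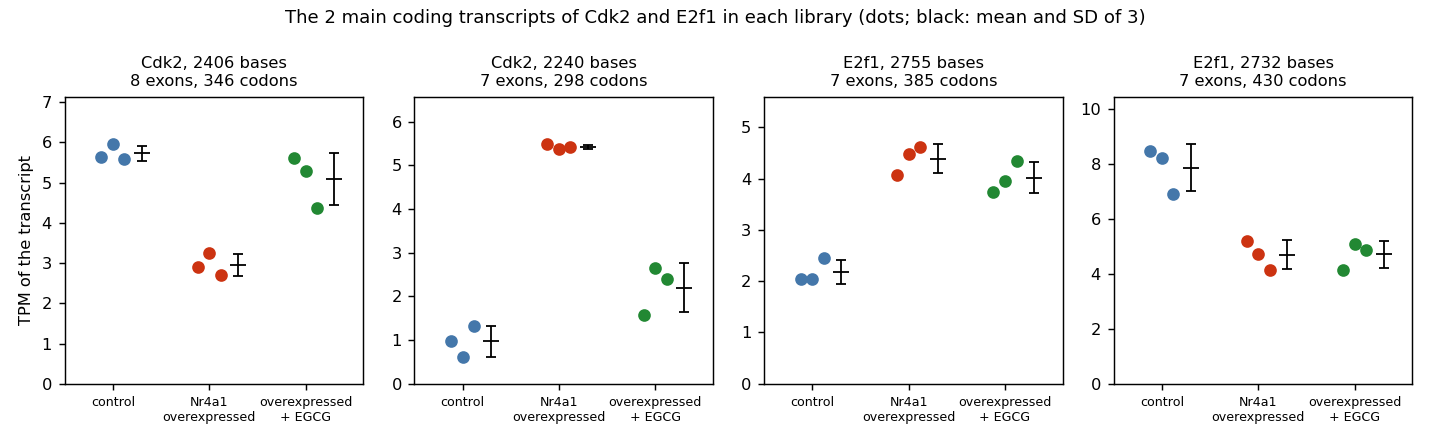
TPM of the 2 main coding transcripts of Cdk2 (left pair) and E2f1 (right pair) in each library, with mean and SD of 3 in black and axes from 0. The 8-exon Cdk2 form falls and the 7-exon form rises with overexpression and both move back with EGCG, while the E2f1 forms differ from control in both overexpressing groups.

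All 4 chromatin and methylation genes were higher with overexpression (median log2 fold change 0.35) and lower with EGCG (median -0.33). Uhrf1, which brings the maintenance methyltransferase to new DNA, was at 19.5, 18.5 and 16.7 TPM in control cells, 29.8, 26.4 and 29.4 TPM with overexpression and 16.3, 18.3 and 18.5 TPM with EGCG, a 1.56-fold rise. Chaf1b, a subunit of the histone chaperone CAF-1, was at 23.2, 23.1 and 24.4 TPM, then 31.2, 30.6 and 31.1 TPM, and 23.0, 22.9 and 23.8 TPM with EGCG. Both returned into overlap with control. Dnmt1, that methyltransferase, was at 34.2, 33.1 and 30.2 TPM, then 40.3, 40.0 and 41.7 TPM, and 34.5, 35.3 and 36.5 TPM with EGCG. Dnmt1 rose 1.25-fold (log2 fold change 0.32 ± 0.0557 SE; limma adjusted p = 0.00106), and its fall with EGCG was small (-0.19; limma adjusted p = 0.0164) and lost under each rescaling and without overexpression replicate 3 or EGCG replicate 1 (limma adjusted p = 0.0603 and 0.059). Chaf1a, the large subunit of CAF-1, went from 6.87 ± 0.441 to 8.54 ± 0.205 and to 6.98 ± 0.376 TPM.

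With EGCG and overexpression against control, 9 of the 50 replication genes were called, a share near that of all tested genes. Tyms, Rpa1, Mcm5, Fen1, Cdc7, Tk1 and Pold2 were higher, Ccne2 and Prim2 were lower and 41 were not called, against 11.1% of all tested genes higher and 7.1% lower. The median log2 fold change was 0.05, between -0.43 and 0.41. Of the genes called higher, Mcm5 was at 31.3 ± 1.3 TPM in control cells and 37.8 ± 1.83 TPM with EGCG (log2 fold change 0.26 ± 0.0531 SE; limma adjusted p = 0.0137). Tk1 was at 15.2 ± 2.08 and 19.0 ± 0.576 TPM. Prim2, called lower, was at 16.1 ± 0.339 and 14.3 ± 0.255 TPM. The 9 calls depended on each library. Leaving out control replicate 3 gave 16, and leaving out any other single library gave between 0 and 4. The split of 7 higher and 2 lower became 5 and 5 after median-ratio scaling, 6 and 4 after quantile normalization, and 14 and 1 with nuclear protein-coding genes alone.

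Gene totals were in places carried by short or non-coding transcripts. The 50 genes had 275 transcripts in the table, of which 120 are annotated as protein coding, 108 as retained introns, 31 as processed transcripts and 16 as targets of nonsense-mediated decay. The median share of a member's TPM on transcripts not annotated as coding was 9.95% in control, 6.61% with overexpression and 7.63% with EGCG. It was largest for Rfc2, at 92.4%, 93.6% and 93.3%, for Tyms, at 76.4%, 83.0% and 82.2%, and for Gins2, at 49.1%, 63.6% and 63.8%. Tyms coding TPM was 6.18 ± 1.7, 10.7 ± 0.544 and 5.31 ± 0.426, a 1.73-fold rise in place of 2.41-fold (limma adjusted p = 0.00188). Its 3163-base coding transcript alone was at 4.53 ± 0.225, 9.93 ± 0.262 and 4.92 ± 0.226 TPM. Gins2 coding TPM was 5.61 ± 0.451, 10.4 ± 0.37 and 5.23 ± 0.609, with a log2 fold change of 0.78 in place of 1.28. Counted over protein-coding transcripts alone, 39 members were higher and 2 lower with overexpression, and with EGCG 40 were lower and 1 was higher.

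Mcm2 showed most plainly what a short transcript does to a gene total. Its 273-base transcript of the decay type was listed at 25.5 and 22.4 TPM in control replicates 1 and 2 and at 0 in the other 7 libraries. The 3371-base coding transcript was at 34.8, 36.4 and 35.0 TPM in control cells, 59.6, 57.9 and 58.2 TPM with overexpression and 36.7, 39.3 and 37.8 TPM with EGCG, without overlap between overexpression and the rest. On coding transcripts Mcm2 rose with a log2 fold change of 0.71 (limma adjusted p = 3.37e-06) and fell with EGCG by 0.61 (limma adjusted p = 1.05e-05). That places it second to Mcm5 within the ring.

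Other members held short transcripts that were highest in control. The 944-base transcript of Lig1, annotated as coding, was at 8.42, 12.1 and 4.32 TPM in control cells, 1.42, 1.48 and 1.92 TPM with overexpression and 1.51, 2.34 and 3.37 TPM with EGCG. Its 3091-base transcript was at 22.1 ± 0.785, 22.1 ± 1.27 and 22.2 ± 0.679 TPM, and in the fit of each gene's most abundant coding transcript Lig1 was not called (limma adjusted p = 0.983). The 432-base processed transcript of Ccne2, cyclin E2, was at 16.5, 23.6 and 8.55 TPM in control cells, 6.78, 7.62 and 8.97 TPM with overexpression and 4.44, 4.97 and 8.59 TPM with EGCG. Ccne2 as a whole was not called with overexpression (48.7 ± 8.49 and 43.2 ± 0.828 TPM) but was called lower without control replicate 3 (-0.30; limma adjusted p = 0.00938), after median-ratio scaling (-0.27; limma adjusted p = 0.0476) and after quantile normalization (-0.33; limma adjusted p = 0.0297). On coding transcripts it was higher (29.4 ± 1.11 and 33.1 ± 0.202 TPM; log2 fold change 0.16; limma adjusted p = 0.0106) and fell with EGCG (27.2 ± 0.712 TPM; limma adjusted p = 0.000841). In Rrm2 an 841-base form was at 3.12 ± 1.73 TPM in control cells and 0.08 ± 0.139 TPM with overexpression, beside a 2193-base form at 8.97 ± 0.71, 26.9 ± 1.36 and 11.4 ± 2.08 TPM. In Ccne1 a 608-base form was at 2.09 ± 0.388 and 0.31 ± 0.537 TPM, beside a 2000-base form at 4.93 ± 0.361, 8.47 ± 0.264 and 5.57 ± 0.134 TPM. The summed TPM of 1478 odorant, pheromone and trace amine receptor genes was 108, 91.7 and 49.99 in the control libraries, 4.22 to 4.71 with overexpression and 7.85 to 11.8 with EGCG. Subtracting the mean TPM of these receptor genes from every gene changed no member's call in the first 2 comparisons. For EGCG against control Prim2 lost its call (limma adjusted p = 0.0525). The part of these levels in the results was not tested further. Without control replicates 1 and 2, 33 members were higher and 1 lower with overexpression, Lig1 lost its call and Mcm2 gained one (log2 fold change 0.73).

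**Figure D5:**
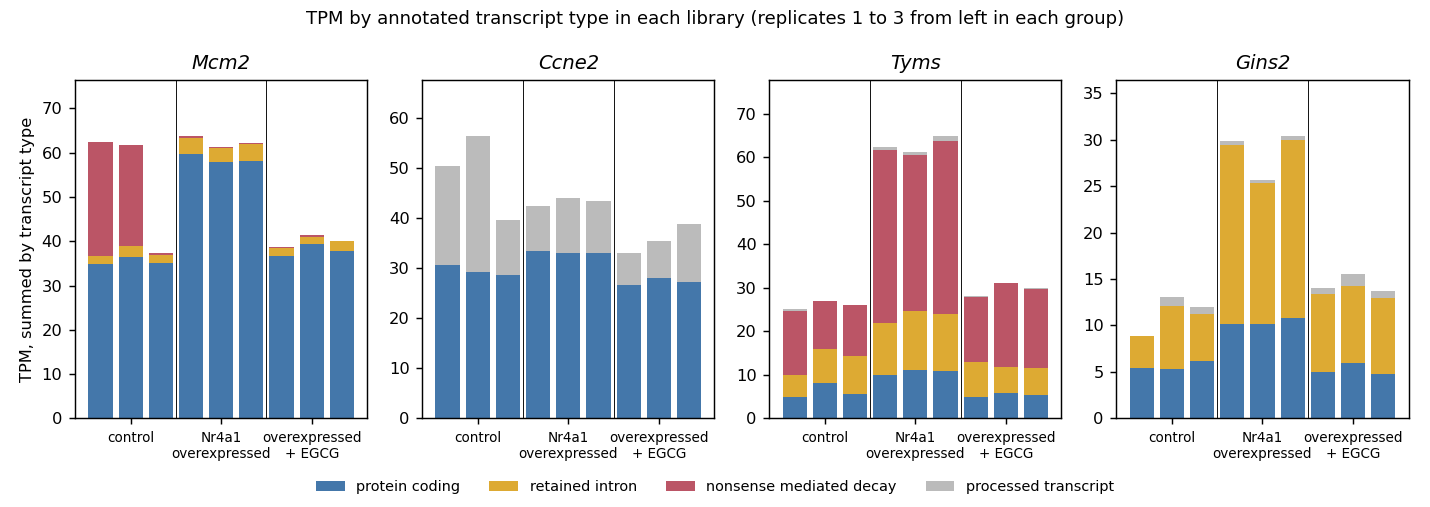
TPM of Mcm2, Ccne2, Tyms and Gins2 in each library, stacked by annotated transcript type, with the 3 libraries of each group side by side and axes from 0. The decay-type transcript of Mcm2 appears in control replicates 1 and 2, the processed transcripts of Ccne2 are highest in the same libraries, and most of the TPM of Tyms and over 60% of that of Gins2 with overexpression lie outside the coding transcripts.

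Of 94 further replication genes, 92 were tested, and 47 were higher and 10 lower with overexpression (median log2 fold change 0.19), while with EGCG 8 were higher and 53 lower (median -0.24). Of all tested genes 38.2% were higher and 21.3% lower with overexpression, and 18.8% higher and 34.1% lower with EGCG. Rescaling brought the counts with overexpression to between 31 and 34 higher and between 19 and 22 lower, and those with EGCG to between 13 and 17 higher and between 31 and 35 lower. By list, genes lower with EGCG were 7 of 13 licensing and firing factors, 12 of 19 fork factors, 10 of 14 nucleotide genes, 10 of 18 G1/S genes, 9 of 12 chromatin genes and 6 of 17 fork protection genes, the last a share near that of all genes. Among licensing and firing factors 6 of 13 rose, led by Orc5 (7.44 ± 0.778 to 11.1 ± 0.218 TPM), the MCM-binding protein Mcmbp and the helicase Recql4, and with EGCG Orc3 was the 1 gene of that list called higher. Among fork factors 6 of 19 rose, a share below that of all genes, including the nuclease Dna2 (3.65 ± 0.121 to 5.32 ± 0.206 TPM). Both accessory subunits of the lagging strand polymerase on this list fell: Pold4 was at 54.2 ± 6.05, 27.9 ± 1.92 and 38.8 ± 2.02 TPM (log2 fold changes -0.93 ± 0.086 and 0.46 ± 0.086 SE; limma adjusted p = 2.44e-05 and 0.00178), and Pold3 at 19.6 ± 3.1 and 13.0 ± 0.926 TPM (limma adjusted p = 0.00199). Pold1 and Pold2, the other subunits of this polymerase, were not called with overexpression.

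Other nucleotide supply genes rose in 11 of 14 cases. Umps, which makes UMP, went from 11.4 ± 0.583 to 20.2 ± 0.183 TPM, the purine enzyme Gart from 12.6 ± 1.05 to 21.9 ± 0.762 TPM and the kinase Nme1 from 22.0 ± 2.13 to 39.3 ± 2.2 TPM. Rrm2b, the reductase subunit that serves DNA repair outside S phase, was lower, at 7.45 ± 0.356, 5.21 ± 0.438 and 6.74 ± 0.27 TPM (limma adjusted p = 0.000374 and 0.00309), opposite to Rrm2. The mitochondrial thymidine kinase Tk2 was the other gene of this list called higher with EGCG. Among 18 other tested G1/S genes 8 rose and 3 fell, shares near those of all tested genes (38.2% and 21.3%). Cyclin A2 (Ccna2) was between 29.1 and 33.5, 47.8 and 51.2, and 27.8 and 30.03 TPM and E2f6 at 7.56 ± 0.605, 11.3 ± 0.329 and 7.23 ± 0.269 TPM. The 3 that fell were Cdkn1a, Rbl1 and Rbl2. The CDK inhibitor p21 (Cdkn1a) was at 21.8 ± 1.1, 14.8 ± 2.04 and 23.0 ± 0.968 TPM (log2 fold changes -0.54 ± 0.0871 and 0.61 ± 0.0871 SE; limma adjusted p = 0.000625 and 0.000413), and the pocket proteins Rbl1 and Rbl2 were at 9.79 ± 1.05 and 7.06 ± 0.318 TPM and at 5.56 ± 0.206 and 3.75 ± 0.173 TPM. All 3 were called higher again with EGCG, while another CDK inhibitor, Cdkn1b, was called higher with overexpression (36.1 ± 3.12 to 40.5 ± 0.833 TPM; limma adjusted p = 0.0498).

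Replication-coupled chromatin genes rose in 9 of 12 cases and none fell, led by the histone chaperones Asf1b (14.1 ± 0.632 to 20.3 ± 0.389 TPM) and Rbbp4 and by Atad2. Fork protection and recombination genes divided, with 7 of 17 higher and 4 lower, shares near those of all tested genes (38.2% and 21.3%). Fancd2 and Fanci, the paired Fanconi proteins, went from 4.33 ± 0.115 to 7.60 ± 0.467 TPM and from 3.11 ± 0.106 to 5.11 ± 0.0404 TPM, and the nuclease Exo1 from 8.38 ± 1.02 to 15.3 ± 1.37 TPM. The checkpoint kinase Atr went the other way, at 15.9 ± 0.696, 10.5 ± 0.331 and 17.5 ± 2.26 TPM (log2 fold changes -0.55 ± 0.0854 and 0.67 ± 0.0854 SE; limma adjusted p = 0.000498 and 0.000209), as did Brca2 (13.5 ± 1.81 to 9.53 ± 0.361 TPM), Blm (6.57 ± 0.115 to 4.79 ± 0.393 TPM) and Rad18 (15.6 ± 0.588 to 12.4 ± 0.484 TPM) against control.

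Mitosis genes, which peak after S phase, moved as the replication genes did. Of 25, 21 were higher and none lower with overexpression by limma at an adjusted p under 0.05 (median log2 fold change 0.46). With EGCG 19 were lower and 1 higher, the kinase Aurkb (median -0.41). The shares over all tested genes were 38.2% higher and 21.3% lower with overexpression, and 34.1% lower and 18.8% higher with EGCG. Cdc20, an activator of the anaphase-promoting complex, was at 15.5 ± 0.902, 42.1 ± 1.78 and 18.6 ± 1.91 TPM. Cyclin B1 (Ccnb1) was at 29.7 ± 2.01, 64.7 ± 1.06 and 39.1 ± 2.74 TPM, and the kinase Plk1 at 6.27 ± 0.365, 13.0 ± 0.375 and 6.67 ± 0.786 TPM. Their medians lie beside those of the 50 replication genes, 0.33 and -0.36, and a difference between these lists was not tested.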

How the data were processed

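Total RNA of 9 MIN6 samples, 3 per group, was prepared with a stranded total RNA kit, per the labels' protocols. The authors deposited TPM values per transcript. The submitters' processing notes name RSEM 1.2.31, STAR 2.7.1a, cutadapt 2.8, FastQC 0.11.9 and bcl2fastq 2.20, and the genome GRCm39. The sources used here give neither the annotation nor whether strand was counted. TPM were summed per gene over GENCODE M21 names, types and lengths (made on the older GRCm38), which matched 97.1% of 142435 transcripts. The unmatched ones held 18.0 to 20.6% of a library's TPM and were left out.

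Genes reaching 1 TPM in 3 or more libraries entered, as log2(TPM + 1), 1 limma fit of all 9 libraries (limma 3.58.1, R 4.3.3, moderated with a variance trend, two-sided, Benjamini-Hochberg adjusted over 11950 genes, called under 0.05). RSEM splits reads between similar transcripts by estimation, so single transcripts are less certain than genes. Exons of 16 of the 50 genes overlap another gene's exons, 15 of them on the opposite strand, where counting without strand would mix the genes. The steps were also run on simulated data with independent noise and few changed genes. That setting is unlike these data, so the run does not bear on the calls reported here. Libraries of a group correlated at r of 0.9721 to 0.9863 across genes. Deviations from group means correlated at r between -0.021 and 0.214 for same-numbered libraries and between -0.238 and 0.121 for the others. A weak pairing is therefore possible. The labels do not say that numbers pair samples, so the main fit did not pair them, and counts with a replicate block are given below. Values in every library were given for the 3 members of each role with the smallest adjusted p for overexpression against control and for members called against the main direction. Of other lists, up to 3 called genes with the smallest adjusted p and those called in the opposite direction were named, and Dbf4, Cdkn1b and Spp1 outside that rule after their values were seen. Promoters were shown for the 4 members with an E2F match and the largest rise, and the 1 without a match. Members and lists were chosen with earlier results of these data known, and Cdk2, E2f1, Mcm2, Lig1, Ccne2, Rrm2 and the other genes described by transcript were singled out after their values were seen. Alternatives were other scalings, pseudocounts, filters, transcript sets and fits, and the omission of libraries. Of these, the longest and the most abundant coding transcript and the omission of 2 control libraries together, were chosen after seeing the data.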

Additional observations from a re-analysis of the deposited data

How the results depend on the processing

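Most calls among the 50 genes kept their direction and side of the threshold, while counts of the rarer direction and of EGCG against control did not. With overexpression, genes called lower (1) came to 6 after median-ratio scaling, 6 after quantile normalization, 5 with nuclear protein-coding genes alone, 2 with protein-coding transcripts and 2 with the most abundant coding transcript, and to between 0 and 4 with single libraries left out (4 without control replicate 3). Between EGCG and overexpression, genes called higher (2) came to 4, 4 and 4 under the same scalings, to 1 with protein-coding, longest or most abundant coding transcripts, and to between 1 and 2 with single libraries left out. For EGCG against control, the 9 calls (7 higher, 2 lower) came to 5 (4 and 1) without the filter on low values, 15 (14 and 1) with nuclear protein-coding genes, 5 (4 and 1) with protein-coding transcripts, 0 (0 and 0) with only the 2 groups compared or without control replicates 1 and 2, and between 0 and 16 (0 to 9 and 0 to 7) with single libraries left out. Genes called lower there were 5 after median-ratio scaling, 4 after quantile normalization, and 1 with the receptor gene mean subtracted, with the most abundant coding transcript or without a variance trend. With the replicate block, 35 members were higher and 1 lower with overexpression, 34 lower and 2 higher with EGCG against overexpression, and 4 higher and 0 lower against control. The causes were not tested.

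Some log2 fold changes that were called as reported or under the alternative changed sign between them, and others that were called in neither are not listed. With overexpression these were Pold2 (-0.151) and Ccne2 (0.163) on protein-coding transcripts, Ccne2 on the most abundant transcript (0.222), Cdk2 on the longest and the most abundant (-0.771 in both) and E2f1 on the longest (0.76). For EGCG against overexpression they were Mcm3 after quantile normalization (0.007) and with nuclear protein-coding genes (0.001), Dut (0.055) and Dnmt1 (0.006) after quantile normalization, Cdc7 on the most abundant transcript (-0.104), Rfc4 on the longest (0.026) and Cdk2 on both (0.623). For EGCG against control they were, on the longest transcript, Mcm5 (-0.051), Rpa1 (-0.04), Fen1 (-0.076), Pold2 (-0.036), E2f1 (0.658) and Uhrf1 (0.356), on the most abundant Pold2 (-0.036) and Uhrf1 (0.356), and on protein-coding transcripts Pold2 (-0.009) and Tyms (-0.163). With the longest or most abundant transcript these values describe 1 transcript and not the gene. TPM gives no depth, so no counting error could be set beside low genes such as Orc1 and E2f2.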
